A study of Mus musculus with 4 samples.

Results

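The 33 genes described here encode cathepsins and other lysosomal proteins. They were chosen by name, with earlier results of these data known. All 33 were among the 31053 genes of the mouse count matrices. Cells of mouse liver were profiled by droplet single-cell RNA sequencing from the 5′ end of transcripts, in 4 libraries with 1 library per group. The groups were premalignant liver of mice labelled KO for Mef2d, premalignant liver of mice labelled WT, early hepatocellular carcinoma (eHCC) of KO mice and eHCC of WT mice. The labels used here name no strain, age, tumour model or number of animals per library, nor the cell type in which Mef2d was deleted or the deleted part of the gene, so animals, preparation and group cannot be told apart. Mef2d RNA was 101 CPM (UMIs scaled to a class total of 1e6) in the premalignant library labelled KO and 72.2 CPM in the one labelled WT, and 96.4 against 61.3 CPM in eHCC, so its level does not check the labels. With 1 library per group no difference between conditions could be tested. Each ratio compares 2 libraries, and its 95% interval covers counting error only.

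Lysosomes are acidic organelles that break down proteins, lipids and sugars delivered by endocytosis, phagocytosis and autophagy. Cathepsins are their main proteases, and the vacuolar ATPase acidifies the lumen in which they work. Resident macrophages and the sinusoidal endothelium of the liver clear large amounts of material from blood, while dendritic cells and B cells use the same compartment to prepare antigen. Factors of the TFEB family bind a short palindrome, the CLEAR element, in promoters of many lysosomal genes.

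The CLEAR palindrome TCACGTGA, which contains the shorter core CACGTG and reads alike on both strands, was searched in RefSeq promoters (mouse build GRCm38.p6, 250 bases before to 50 after each start site). It was found for 4 of the 25 members with a promoter entry (16%), for 9 of 73 other lysosomal genes (12.33%) and for 304 of 27025 genes in all (1.12%). The core alone occurred in 8 of the 25 members (32.0%) and in 2187 genes (8.09%). Ctsb, Ctse, Ctsh, Ctsw, Npc1, Atp6v0d2, Atp6v1h and Asah1 had no entry. The matches upstream of the start site are shown because Tfeb and its relative Tfec are themselves members; capitals mark the palindrome, and each is written 5′ to 3′ on the strand of its gene.
Ctsa, chr2:164833748-164833779, plus strand: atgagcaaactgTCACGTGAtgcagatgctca
Ctsd, chr7:142387907-142387938, minus strand: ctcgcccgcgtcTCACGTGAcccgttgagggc
Mcoln1, chr8:3500461-3500492, plus strand: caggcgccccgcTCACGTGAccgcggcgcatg
Gla, chrX:134601214-134601245, minus strand: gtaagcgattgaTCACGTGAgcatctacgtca
Gla, chrX:134601181-134601212, minus strand: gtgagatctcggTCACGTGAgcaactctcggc
Gla was the member with 2 matches before its start site, at 228 and 195 bases upstream counted from the first base of the motif. Ctsa also held 2 matches in the window, the second of them, not printed, after its start site at bases 4 to 11. Of the 4 members with a match, Gla passed 1.5-fold in the eHCC macrophages given later, and Ctsa, Ctsd and Mcoln1 lay within it. Cd68, Lipa, Psap, Ctsk, Cst3, Gusb and Ctsf passed that fold with no match in this window. A link between matches and ratios was not tested. A match describes the letters in this window and is not evidence of binding.

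After filtering, 8796 and 12229 cells were kept from premalignant liver labelled KO and WT, and 8382 and 9487 from eHCC. Median depth per cell ran from 4305.5 UMIs in the premalignant library labelled KO to 8316 UMIs in the eHCC library labelled WT. Cell classes were rebuilt by clustering, and their names stand for cells that carry the marker genes of that type (T-cell-like, macrophage-like and so on), so they may differ from the names the study used. Kupffer cells came mostly from premalignant liver (32 and 285 cells against 6 and 11 in eHCC, with 12 and 53 more cells that carried Kupffer genes left unnamed), as did liver sinusoidal endothelial cells, abbreviated LSEC (2899 and 5488 against 9 and 46). Other macrophages were mostly from eHCC (262 cells labelled KO and 1842 labelled WT). Pairs of libraries shared 19 to 33 cell barcodes.

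Macrophages, Kupffer cells included, were the class that led for the largest number of members in 3 of the 4 libraries. In eHCC, 16 of 33 had their highest class level in macrophages in the library labelled KO and 20 of 33 in the one labelled WT. In premalignant liver labelled WT, 16 of 33 were highest in Kupffer cells. The premalignant library labelled KO held too few Kupffer cells to rank, and there plasmacytoid dendritic cells (pDC) led for 11 members while LSEC and classical monocytes led for 8 each. The ranking used macrophage, monocyte, dendritic, endothelial and lymphocyte classes of at least 50 cells, and the statements on highest classes below hold for those. UMIs are not scaled to gene length, so levels are compared between classes and not between genes.

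**Figure D1:**
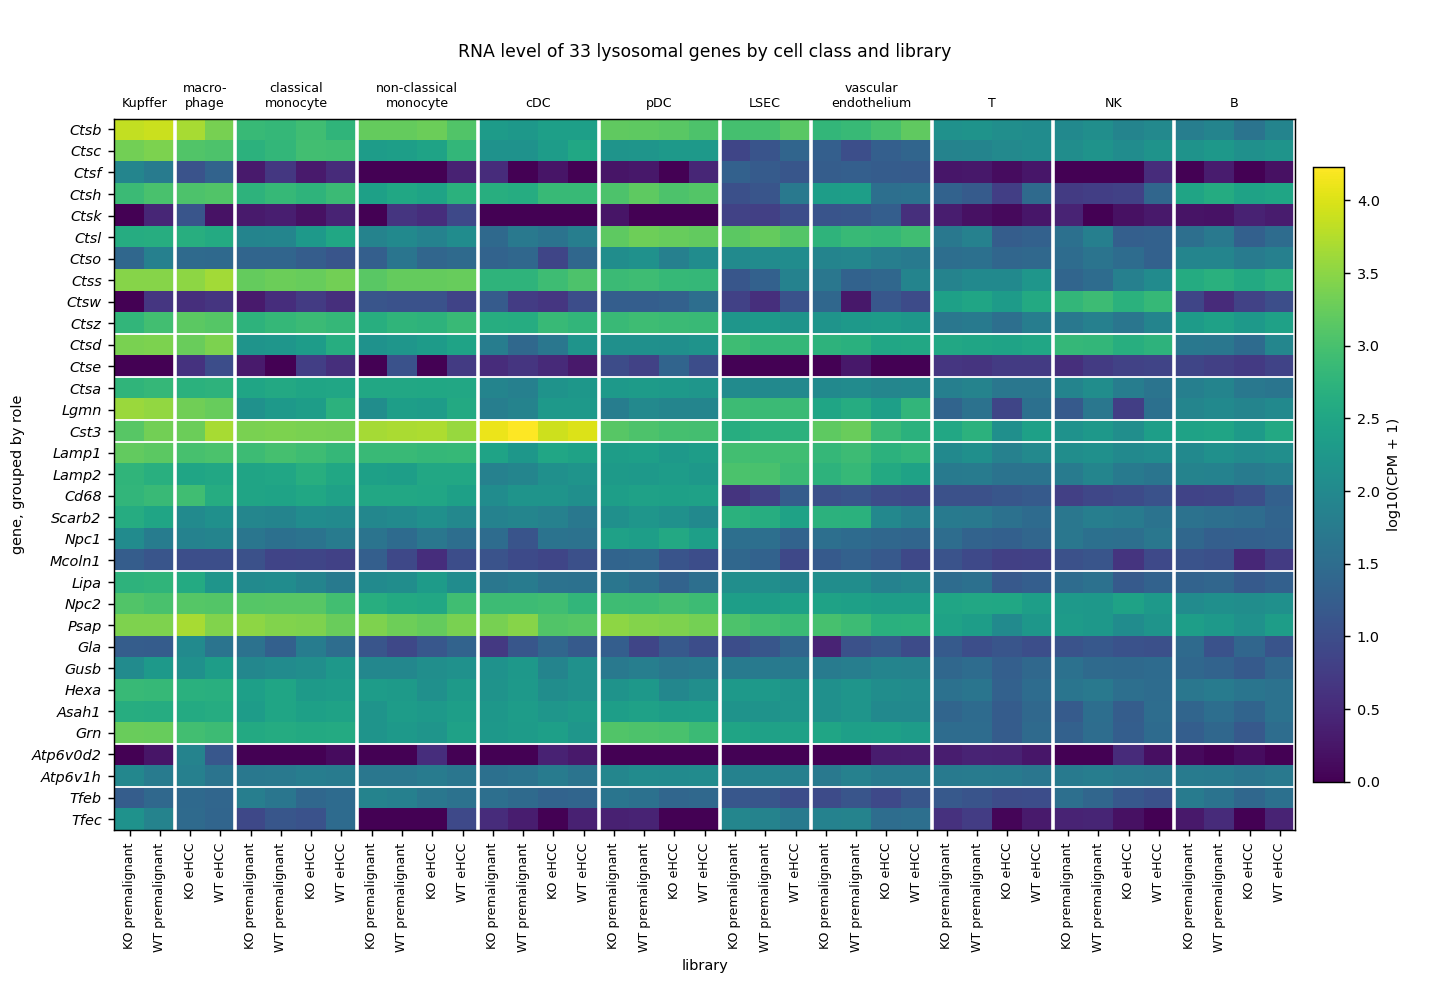
Colour shows the level of each of the 33 genes (rows, grouped by role) as log10(CPM + 1) in each cell class and library with at least 30 cells (columns). Ctsb is brightest in Kupffer cells, Cst3 in conventional dendritic cells and Ctsw in NK and T cells.

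Among the cysteine cathepsins, Ctsb, a broad-acting protease, marked the resident macrophage. It stood at 6972 CPM in premalignant Kupffer cells labelled KO and 7723 CPM in those labelled WT, and at 4697 and 2284 CPM in eHCC macrophages. B cells lay at the bottom of its range, between 41.3 and 80.2 CPM. Ctss, which trims the invariant chain of MHC class II, was 2919 and 2912 CPM in Kupffer cells, 3189 and 4422 CPM in eHCC macrophages, and between 373 and 492 CPM in B cells. It was 12.4 and 19.7 CPM in premalignant LSEC.

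Ctsl, a potent endopeptidase, followed another order. It was highest in pDC in all 4 libraries, at 1496, 1977, 1797 and 1631 CPM (premalignant KO and WT, then eHCC KO and WT). LSEC came next in premalignant liver, with 1480 and 1725 CPM, and vascular endothelium next in eHCC, with 661 and 851 CPM. The premalignant values of pDC and LSEC labelled KO did not differ beyond counting error. Conventional dendritic cells (cDC) held 26.5 to 63.1 CPM. The aminopeptidase Ctsh was likewise highest in pDC in each library, from 1103 to 1501 CPM, although macrophages of eHCC came close at 1098 and 1226 CPM, and was 268 to 401 CPM in B cells but only 4.36 to 24.2 CPM in NK cells.

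Ctsw, a cathepsin of cytotoxic lymphocytes, was highest in NK cells in every library, at 631, 794, 497 and 675 CPM in the same order. T cells came next with 257, 303, 211 and 365 CPM. No other ranked class exceeded 32.8 CPM, the value of pDC in eHCC labelled WT. Ctsc, the dipeptidyl peptidase that activates granzymes and neutrophil proteases, was 2154 and 2458 CPM in Kupffer cells and 1196 and 1123 CPM in eHCC macrophages. Its level in NK cells was 112 to 150 CPM.

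The other cysteine cathepsins were spread differently. The carboxypeptidase Ctsz was 1460 and 1279 CPM in eHCC macrophages and 724 to 838 CPM in pDC. Ctso peaked in pDC, from 67.4 CPM in eHCC labelled KO to 139 CPM in premalignant liver labelled WT. Ctsf was 82.2 and 55.6 CPM in Kupffer cells, although the first value rests on 10 UMIs. Ctsk, the collagen-degrading protease of osteoclasts, stayed at or below 17.1 CPM in the ranked classes, a value reached in vascular endothelium of eHCC labelled KO with 16 UMIs.

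The aspartic protease Ctsd was 2409 and 2503 CPM in Kupffer cells and 1847 and 2516 CPM in eHCC macrophages. Behind macrophages it was highest in NK cells and LSEC. NK cells held 661, 643, 444 and 535 CPM and premalignant LSEC 839 and 666 CPM. Ctse, its relative in erythroid and antigen-presenting cells, did not exceed 22.2 CPM in any of these classes, the value of pDC in eHCC labelled KO. Legumain (Lgmn), an asparaginyl endopeptidase that processes other cathepsins, was 3914 and 3565 CPM in Kupffer cells, 2035 and 1737 CPM in eHCC macrophages and 790 and 761 CPM in premalignant LSEC. Ctsa, a carboxypeptidase that also shields other glycosidases, ranged from 42.1 CPM in NK cells of eHCC labelled WT to 658 CPM in Kupffer cells labelled WT.

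Cystatin C (Cst3), the secreted inhibitor of cysteine cathepsins, was highest in cDC in every library, at 12810, 17016, 8112 and 10122 CPM. Non-classical monocytes held 4536, 4968, 5199 and 3838 CPM, and eHCC macrophages labelled WT 4743 CPM. NK cells lay lowest, between 124 and 230 CPM, beside T cells at 125 CPM in eHCC labelled KO. In cDC, where the inhibitor peaked, Ctsb was 177 to 246 CPM and Ctsl at most 63.1 CPM.

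Among the membrane proteins, Lamp2, a structural glycoprotein needed for autophagy, was 1064 and 1023 CPM in premalignant LSEC, against 576 and 458 CPM in Kupffer cells of the same libraries. In eHCC, vascular endothelium held 375 and 268 CPM of it and macrophages 307 and 339 CPM. Vascular endothelium was thus above macrophages only in the library labelled KO. The few LSEC of eHCC, 9 labelled KO and 46 labelled WT and too few to rank, held 910 and 774 CPM. Scarb2, the receptor that carries glucocerebrosidase to lysosomes, was 510 and 433 CPM in premalignant LSEC, 529 and 496 CPM in premalignant vascular endothelium and 411 and 306 CPM in Kupffer cells. In eHCC it was 93.1 and 67.2 CPM in vascular endothelium, 103 and 134 CPM in macrophages and 204 and 277 CPM in the few LSEC. Cd68, a heavily glycosylated macrophage protein, was 608 and 732 CPM in Kupffer cells and 3.33 and 5.69 CPM in premalignant LSEC. Npc1, which exports cholesterol from the lysosome, was highest in pDC in all 4 libraries, at 266, 235, 359 and 248 CPM. Its soluble partner Npc2 was instead highest in classical monocytes in 3 of the 4 libraries and in macrophages in eHCC labelled WT. The calcium channel Mcoln1 was no higher than 24.5 CPM in any ranked class, with that value in premalignant LSEC labelled KO.

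Of the hydrolases and activators, acid lipase (Lipa) was 534 and 588 CPM in Kupffer cells and 391 and 157 CPM in eHCC macrophages. The saposin precursor Psap was 2549 and 2602 CPM in Kupffer cells, 4746 and 2681 CPM in eHCC macrophages and 3312, 2758, 2581 and 2203 CPM in pDC. Progranulin (Grn) was 1850 and 1740 CPM in Kupffer cells and 772 to 1203 CPM in pDC. Hexa, a subunit of beta-hexosaminidase, was 707 and 676 CPM in Kupffer cells and at most 42.3 CPM in T cells. Asah1, the acid ceramidase, ranged in T cells from 16 to 29.6 CPM against 428 and 410 CPM in Kupffer cells.

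Among ranked classes the pump subunit Atp6v0d2 was highest in eHCC macrophages, at 77.9 CPM labelled KO and 13.2 CPM labelled WT, with at most 2.62 CPM in any other of them. Atp6v1h, a subunit of the cytosolic part of the same pump, was found in every ranked class, from 36.1 CPM in cDC of premalignant liver labelled KO to 108 CPM in pDC of premalignant liver labelled WT. Tfec, a TFEB relative, was 140 and 76.9 CPM in Kupffer cells, 86.5 and 75.6 CPM in premalignant LSEC and 0.139 to 4.56 CPM in T cells. Tfeb itself was highest in a monocyte class in each library, at 62.7, 68.1, 47.2 and 39.1 CPM.

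In eHCC macrophages, 8 of 33 members were at least 1.5-fold higher in the library labelled KO and 4 at least 1.5-fold lower. Of all 10362 genes with at least 50 UMIs in the 2 libraries together, 14.2% were higher and 16.5% lower by that measure. The members' median log2 ratio was 0.06, against 0.03 over all genes. Median depth of these cells was 4987 UMIs labelled KO and 15072.5 UMIs labelled WT. After each cell was thinned to 1000 UMIs, 9 of 25 members passed the fold. Ctsb differed at 4697 against 2284 CPM (log2 ratio 1.04, interval 1.01 to 1.07). Cd68 was 870 against 417 CPM (1.06, 1.00 to 1.12), Lipa 391 against 157 CPM (1.31, 1.22 to 1.41) and Psap 4746 against 2681 CPM (0.82, 0.80 to 0.85).

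Gla, the alpha-galactosidase that removes galactose from glycolipids, was 104 against 41.8 CPM in the same macrophages (1.31, 1.12 to 1.5). The pump subunits among the members were higher too. Atp6v0d2 was 77.9 against 13.2 CPM (2.56, 2.31 to 2.81). Atp6v1h was 69.3 against 41.9 CPM (0.73, 0.51 to 0.94), with a ratio of 0.44 after thinning. In the library labelled WT, 30.1% of the Atp6v0d2 UMIs came from 1 cell. Ctsk was 12 against 0.589 CPM on 35 and 16 UMIs, with 28.6% of the former in 1 cell, and its ratio turned from 4.35 to -1.09 when cells called doublets were kept.

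Cst3 was the abundant member that was lower in the library labelled KO, at 1937 against 4743 CPM (-1.29, -1.33 to -1.25). Gusb, the beta-glucuronidase, was 132 against 230 CPM (-0.80, -0.95 to -0.65). Ctsf was 11 against 21.4 CPM (-0.96, -1.52 to -0.45) and Ctse 3.09 against 8.94 CPM (-1.53, -2.68 to -0.58). The remaining 21 members lay within 1.5-fold, among them Ctss, Ctsd, Lgmn, Lamp1 and Grn. Of 86 other lysosomal genes with enough UMIs, 15 were higher and 8 lower, with a median of 0.18: Igf2r, Gpnmb and Cstb were higher by 2.41, 2.04 and 1.37 on the log2 scale, and Lyz2 and Arsb, among the lower genes, had ratios of -1.79 and -1.69. The 4 erythroid markers summed to 5784 CPM in the macrophages labelled KO and 86.9 CPM in those labelled WT, and their part in these ratios was not tested.

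The macrophages of the 2 eHCC libraries were spread differently over clusters. Nearly all labelled KO lay in clusters shared with the library labelled WT, which also had clusters with few cells labelled KO. A cluster led by Gdf15, Vcam1 and Mmp12 held 119 cells labelled KO and 153 labelled WT, and a cluster led by Ccl8 and Aif1, with a median of 1843.5 UMIs per cell, held 137 and 121. Clusters led by Fcrls and Tmem119 (911 and 483 cells) and by Fcrls and Spp1 (133 cells) were from the library labelled WT but for 3, 2 and 1 cells labelled KO. Within the Gdf15 cluster, only 2 of 30 members were at least 1.5-fold higher in the library labelled KO and 2 lower (6.61% and 11.6% of 7411 genes). The members' median log2 ratio there was -0.14, against -0.07 over all genes.

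Most of the class-level differences were small inside that cluster. Ctsb was 4884 against 4569 CPM (0.10), Cd68 878 against 825 CPM (0.09), Psap had a ratio of 0.08 and Cst3 was 1794 against 1735 CPM (0.05). Lipa and Atp6v0d2 lay on the other side of 0, at 419 against 522 CPM (-0.32) and 87.4 against 118 CPM (-0.43). A single cell held 13.8% of the 224 Atp6v0d2 UMIs labelled KO and another 32.9% of the 328 labelled WT. The sign of the Atp6v0d2 ratio therefore leans on few cells. Gla remained higher, at 110 against 49.9 CPM (1.15, 0.85 to 1.45), and Ctsl was 479 against 278 CPM (0.78, 0.65 to 0.91). Ctsf, at 10.9 against 25.8 CPM (-1.24), and Tfec, at 30.4 against 50.6 CPM (-0.73), were lower.

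**Figure D2:**
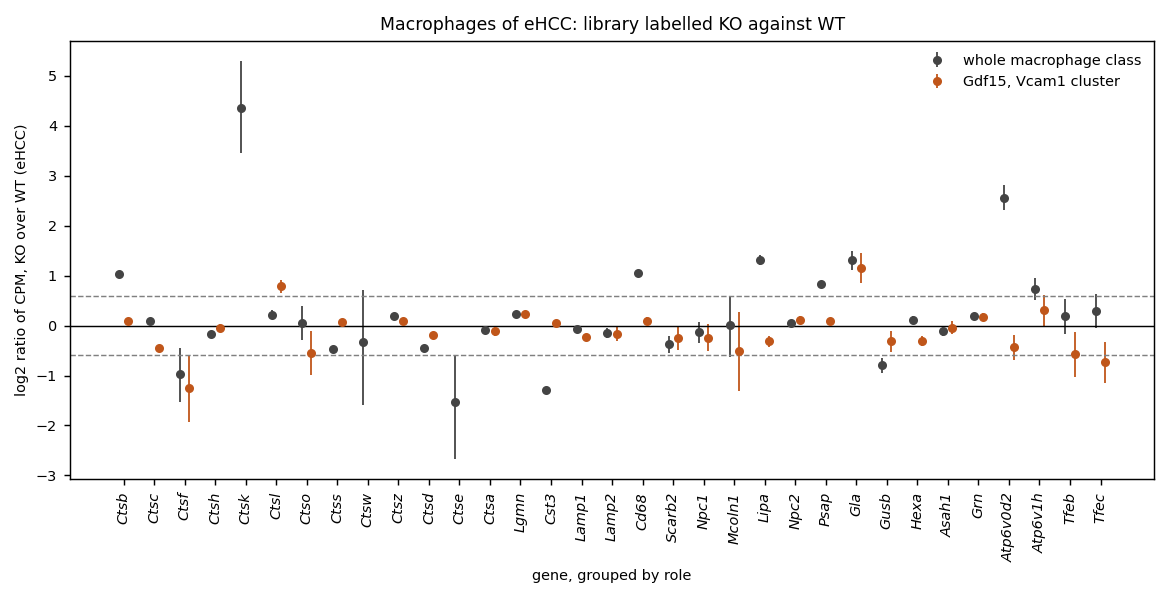
Points show the log2 ratio of CPM in the eHCC library labelled KO over that labelled WT for members with at least 50 UMIs, in the whole macrophage class (grey) and in the Gdf15, Vcam1 cluster (orange), with 95% counting intervals and dashed lines at 1.5-fold. Ctsb lies at 1.04 in the class and 0.10 in the cluster, and Gla at 1.31 and 1.15.

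In the shallow Ccl8 cluster, 21 members had enough UMIs, of which 2 were higher and 3 lower in the library labelled KO (13.4% and 11.5% of 1537 genes). Ctsb was 3396 against 2111 CPM (0.69) and Cd68 879 against 535 CPM (0.72). Ctsd was 1229 against 2099 CPM (-0.77), Gusb 87.5 against 222 CPM (-1.34) and Scarb2 45.5 against 123 CPM (-1.44). The members' median was -0.15 against 0.10 for all genes, and after centring on that value the split was 1 higher and 5 lower.

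Across eHCC phagocyte clusters the members did not move as a block. The Gdf15 cluster combined high Ctsb, Cd68, Lipa and Atp6v0d2 with low Cst3. The larger Fcrls cluster of the library labelled WT had the opposite combination, with Ctsb at 1748 CPM, Cd68 at 315 CPM, Lipa at 98.4 CPM, Atp6v0d2 at 0.686 CPM and Cst3 at 5232 CPM. The Fcrls and Spp1 cluster held 3396 CPM of Ctsb, 706 CPM of Cd68 and 4393 CPM of Cst3 together.

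Ctsd had yet another order. It was 4771 CPM in the Fcrls and Spp1 cluster and 5213 CPM in an unnamed cluster led by Spp1, Gpnmb and Clec4n (364 cells labelled WT, 8 labelled KO), against 1928 and 2189 CPM in the Gdf15 cluster. The unnamed Spp1 and Gpnmb cluster also held 125 CPM of Atp6v0d2, 49.1 CPM of Ctsk and 77.4 CPM of Tfec. An unnamed cluster led by Trem2, Atf3 and Itgb5 had only 624 CPM of Ctsb. These clusters were defined from the same cells, so the values describe them and are no test.

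**Figure D3:**
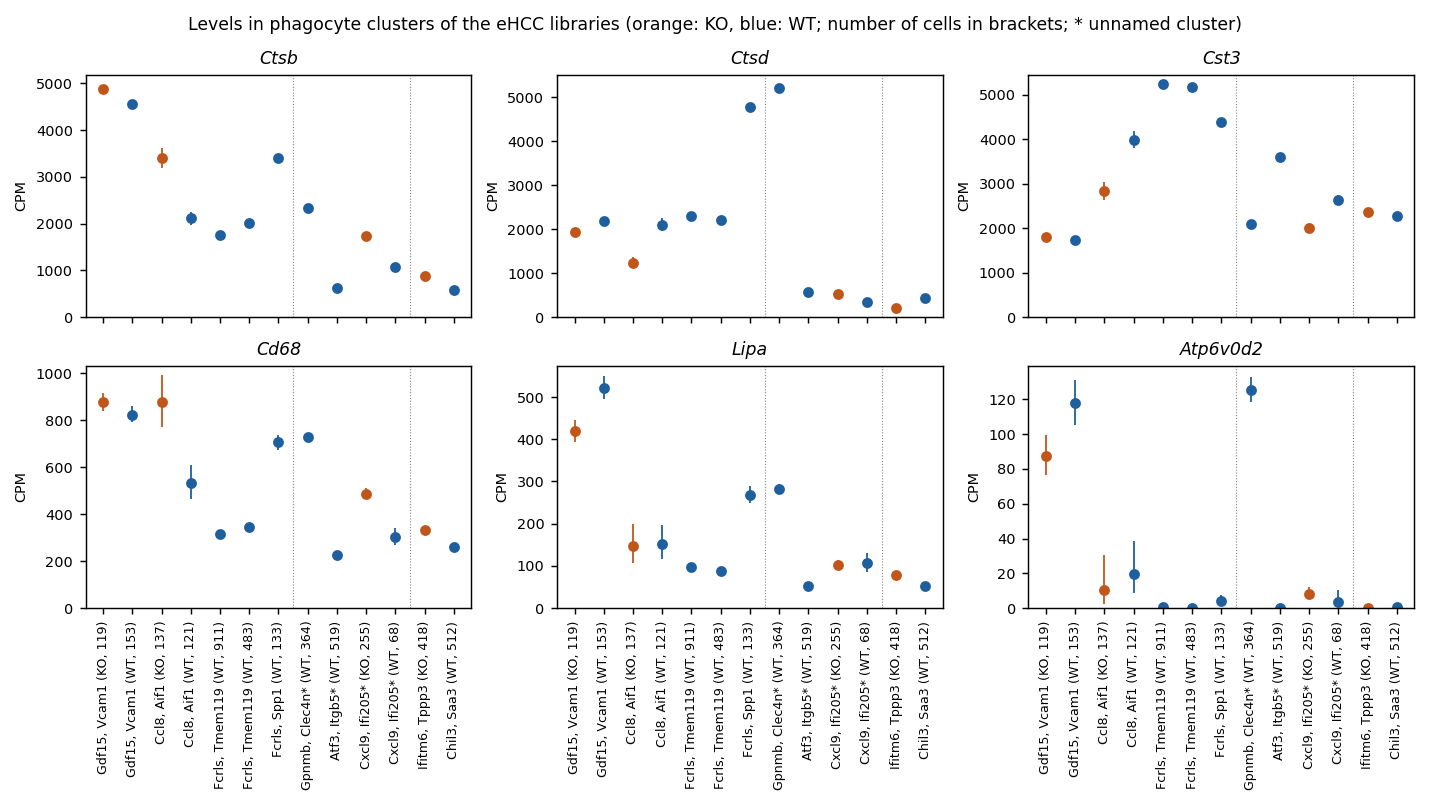
Each panel gives the CPM of 1 gene in phagocyte clusters of the eHCC libraries (orange KO, blue WT), with 95% counting intervals and the number of cells in brackets. Macrophage clusters are on the left, unnamed clusters (asterisk) in the middle and classical monocyte clusters on the right; Atp6v0d2 is 118 and 87.4 CPM in the Gdf15 cluster and 125 CPM in the unnamed Gpnmb cluster.

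Classical monocytes of eHCC had 29 members with enough UMIs, of which 3 were higher and 4 lower in the library labelled KO (10.6% and 18.1% of 8926 genes). The median was 0.06, against -0.09 for all genes, and centring on the latter gave 6 higher and 4 lower. With mitochondrial, ribosomal, haemoglobin and hepatocyte genes left out of the total, the split was 2 and 5. Lgmn was 228 against 532 CPM (-1.22, -1.31 to -1.13), Ctsd 216 against 424 CPM (-0.98, -1.07 to -0.88) and Ctsl 184 against 328 CPM (-0.83, -0.94 to -0.73). Tfec was 10.4 against 29.4 CPM (-1.5). Gla was higher, at 57.8 against 31.7 CPM (0.87, 0.63 to 1.10), as were Lipa at 79.3 against 52.2 CPM (0.60) and Ctse at 5.12 against 2.78 CPM (0.88). The Lipa ratio was -0.16 after each cell was thinned to 1000 UMIs. Different clusters held these cells: 418 of 420 labelled KO lay in a cluster led by Plac8, Ifitm6 and Tppp3, and 512 of 559 labelled WT in a cluster led by Chil3 and Saa3. The 7 macrophage markers summed to 1127 CPM labelled KO and 2659 CPM labelled WT, and the 4 erythroid markers to 1439 and 75.6 CPM, and the part of either in these ratios was not tested.

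The 172 and 141 cDC of eHCC had 26 members with enough UMIs, of which 1 was higher and 4 lower in the library labelled KO (9.09% and 9.32% of 5985 genes), with a median of -0.06 against 0.01 for all genes. Ctsd was 47.1 against 152 CPM (-1.69, -2.10 to -1.29), with 31.7% of the UMIs labelled WT in 1 cell, and its ratio was -1.21 without the top cells. Ctso was 6.72 against 25.1 CPM (-1.90), Gusb 79.2 against 138 CPM (-0.80) and Ctsl 40.3 against 63.1 CPM (-0.65). Gla was 23.9 against 14.9 CPM (0.68, -0.08 to 1.44). Median depth was 3161.5 against 15542 UMIs per cell, and a shallow cluster led by Ccl22, Fscn1 and Ccr7 held 111 of the cells labelled KO and 41 of those labelled WT. Macrophage markers summed to 298 CPM labelled KO and 1071 CPM labelled WT, and their part was not tested.

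Lymphocytes of eHCC had more members lower than higher in the library labelled KO. In T cells 1 of 30 was higher and 10 lower (8.22% and 17.1% of 11757 genes), in NK cells 1 and 7 of 27 (8.17% and 15.5% of 7417) and in B cells 1 and 9 of 26 (7.47% and 11.6% of 6240). The members' medians were -0.26, -0.27 and -0.32, against -0.09, -0.09 and -0.04 for all genes. After centring on the all-gene median the split in NK cells was 4 higher and 6 lower, and with mitochondrial, ribosomal, haemoglobin and hepatocyte genes left out of the total it was 0 and 7.

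Ctsh and Lgmn had the lowest ratios in T and NK cells. Ctsh was 5.02 against 28.0 CPM in T cells (-2.48, -2.70 to -2.26) and 5.51 against 24.2 CPM in NK cells (-2.14, -2.94 to -1.37). Lgmn was 6.62 against 34.8 CPM in T cells (-2.39, -2.59 to -2.20) and 4.98 against 35.3 CPM in NK cells (-2.83, -3.64 to -2.08). Both are abundant in macrophages, and macrophage RNA differed in the same cells: the 3 C1q genes summed to 17.5 CPM in T cells labelled KO and 211 CPM in those labelled WT, and to 19.9 and 206 CPM in NK cells. Scaling each gene's level in macrophages and Kupffer cells to that C1q RNA gave 15.8 of the 28.0 CPM of Ctsh and 22.5 of the 34.8 CPM of Lgmn in T cells labelled WT. The same scaling gave 1.46 of 5.02 CPM and 2.76 of 6.62 CPM in those labelled KO.

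Cst3 was 125 against 256 CPM in T cells (-1.03), 124 against 230 CPM in NK cells (-0.90) and 203 against 359 CPM in B cells (-0.82). The amount scaled to C1q was 61.0, 59.6 and 75.6 CPM in the library labelled WT, and 2.58, 2.93 and 3.30 CPM in the one labelled KO. Ctss, Ctsz, Grn and Asah1 were likewise lower in both T and NK cells, by ratios of -0.95 to -0.67. Ctss was 101 against 164 CPM in T cells, with 56.9 CPM scaled to C1q in those labelled WT. Psap was 105 against 172 CPM (-0.71) and Hexa 19.3 against 29.8 CPM (-0.63) in T cells, with 34.5 and 5.91 CPM scaled to C1q in those labelled WT. Free macrophage RNA as a source of these differences was not tested. The member higher in the library labelled KO was Atp6v0d2 in T cells, at 1.56 against 0.838 CPM on 67 and 25 UMIs (0.89, 0.21 to 1.62), and Ctso in NK cells, at 30.7 against 19.8 CPM on 117 and 41 UMIs (0.63, 0.10 to 1.18).

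Ctsw was also lower in T cells labelled KO, at 211 against 365 CPM (-0.79, -0.83 to -0.75), and was 497 against 675 CPM in NK cells, within 1.5-fold. Its amount scaled to C1q in T cells was 0.004 CPM labelled KO and 0.048 CPM labelled WT. The cells came from different clusters: 2987 of 5052 T cells labelled KO lay in a cluster led by Ccl5, Nkg7 and Cd8b1, and 1457 of 4018 labelled WT in a cluster led by Cd8a and Gzmk. In each of the 4 T cell clusters with at least 100 cells in both libraries the Ctsw ratio was below 0, from -1.64 to -0.40. Lgmn, Cst3, Ctss, Ctsz, Psap, Asah1, Ctsc, Ctso, Grn, Gusb, Hexa, Lamp1 and Lipa were also below 0 in 4 of 4. Only Npc2, Scarb2 and Atp6v1h were above 0 in 4 of 4, with Npc2 between 0.11 and 0.74. The share of all genes with such a pattern was not counted.

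In B cells Ctsd was 29.1 against 85.3 CPM (-1.55, -1.97 to -1.14), Ctsb 41.3 against 80.2 CPM (-0.96) and Grn 14.1 against 32.0 CPM (-1.18). C1q RNA summed to 22.4 and 261 CPM, and the amounts scaled to it were 3.21 and 40.1 CPM for Ctsd and 8.20 and 36.7 CPM for Ctsb. Cd68, Gusb, Asah1, Ctsl and Psap had ratios from -0.97 to -0.71. Gla alone was higher, at 24.4 against 11.8 CPM (1.05, 0.31 to 1.84). Of the 509 B cells labelled KO, 502 lay in a cluster led by Igkc, Iglc1 and Mzb1, and 336 of the 369 labelled WT in another B cell cluster. Erythroid markers summed to 2044 CPM in T cells, 2241 CPM in NK cells and 2931 CPM in B cells labelled KO, and to 196, 137 and 159 CPM in those labelled WT. Their part in these ratios was not tested.

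**Figure D4:**
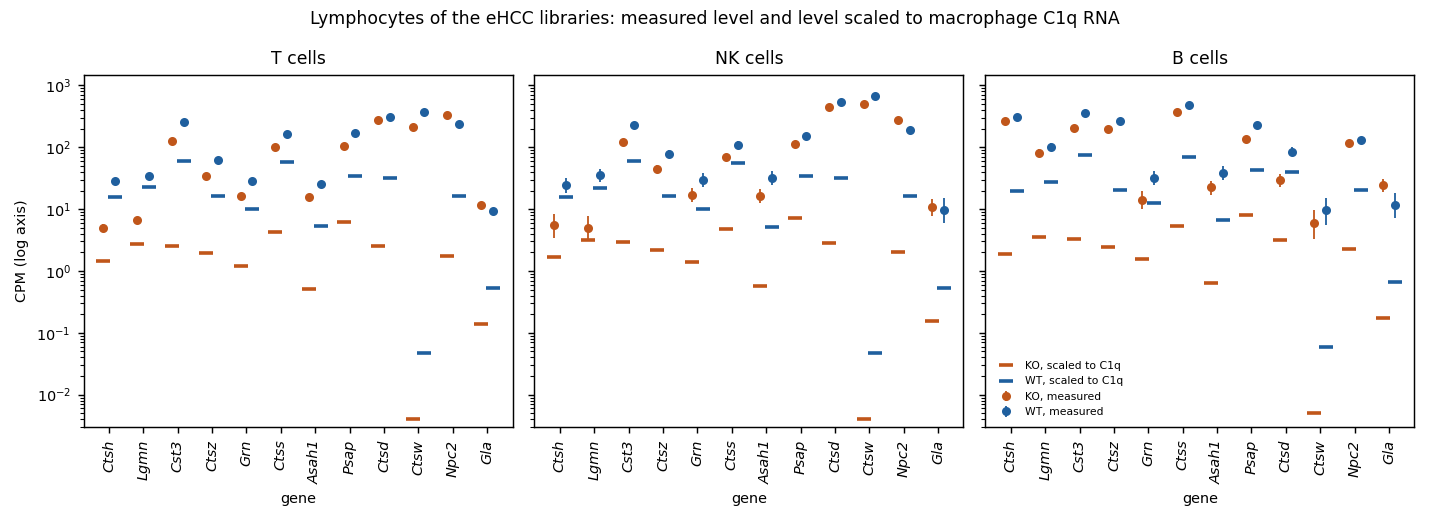
Points give the measured CPM of 12 members in T, NK and B cells of the eHCC libraries (orange KO, blue WT; log axis) with 95% counting intervals, and dashes give the CPM obtained by scaling the macrophage level of the gene to the C1q RNA found in that class. The dash reaches 22.5 of 34.8 CPM for Lgmn in T cells labelled WT and 0.048 of 365 CPM for Ctsw.

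In premalignant liver, 4, 5 and 3 members passed the fold in T, NK and B cells, against 11, 8 and 10 in eHCC, and the difference between stages was not tested. In T cells 1 member of 30 was higher and 3 lower in the library labelled KO (9.65% and 3.85% of 10768 genes), with a median of -0.11 against 0.09 for all genes. Cst3 was 345 against 525 CPM (-0.60, -0.66 to -0.55), Lgmn 22.4 against 38.7 CPM (-0.79) and Tfec 3.02 against 4.56 CPM (-0.59, -1.26 to 0.07), and Gla was 15 against 9.40 CPM (0.68). In NK cells 0 of 24 were higher and 5 lower (11.8% and 4.98% of 6605 genes), with a median of -0.32 against 0.06 for all genes: Lgmn at -1.65, Asah1 at -1.11, Ctsl at -0.88, Grn at -0.67 and Lamp2 at -0.59. The Grn interval reached 0.03. C1q RNA was 3.97 and 46.1 CPM in T cells and 6.53 and 45.1 CPM in NK cells. LSEC made up 2899 of 8796 kept cells labelled KO and 5488 of 12229 labelled WT. The part of free LSEC RNA in the lower Lgmn, Ctsl and Lamp2 of premalignant T, NK and B cells was not tested.

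In premalignant B cells, 2 of 29 members were higher and 1 lower in the library labelled KO (11.1% and 5.03% of 9828 genes), with a median of -0.13 against 0.07 for all genes. Gla was 27.9 against 10.8 CPM (1.37, 1.03 to 1.72) and Ctsw 6.77 against 2.33 CPM (1.54, 0.81 to 2.31), and Ctsl was 33.6 against 50.6 CPM (-0.59). With mitochondrial, ribosomal, haemoglobin and hepatocyte genes left out of the total, the split was 2 higher and 3 lower, and centring gave 2 and 2. Plasma cell markers summed to 3826 CPM in the library labelled KO and 528 CPM in the one labelled WT, and their part in these ratios was not tested.

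Gla was thus the member found higher in the library labelled KO most often. It passed 1.5-fold in T and B cells of premalignant liver, and in macrophages, classical monocytes, cDC and B cells of eHCC. The interval of cDC included 0. Most monocytes and B cells of the 2 eHCC libraries lay in different clusters, as given above. In premalignant classical monocytes, a class too small for the rule, it was 38.0 against 19.0 CPM on 37 and 15 UMIs. Other classes too small for the rule went either way. Gla was lower labelled KO in premalignant vascular endothelium, at 1.675 against 10.2 CPM. The same held in eHCC non-classical monocytes, at 13.1 against 21.0 CPM on 5 and 14 UMIs. Gla was higher labelled KO in eHCC vascular endothelium (13.9 against 8.34 CPM) and eHCC pDC (14.2 against 9.10 CPM). It was not higher in every class: premalignant LSEC held 9.05 against 12.5 CPM and premalignant NK cells 10.9 against 13.9 CPM. NK cells of eHCC held 10.8 against 9.68 CPM, within 1.5-fold. T cells of eHCC held 11.8 against 9.22 CPM, with a ratio above 0 in 2 of their 4 shared clusters and below 0 in the other 2. The count of classes is a description of 2 pairs of libraries, and cells of 1 class share their library with those of the next.

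**Figure D5:**
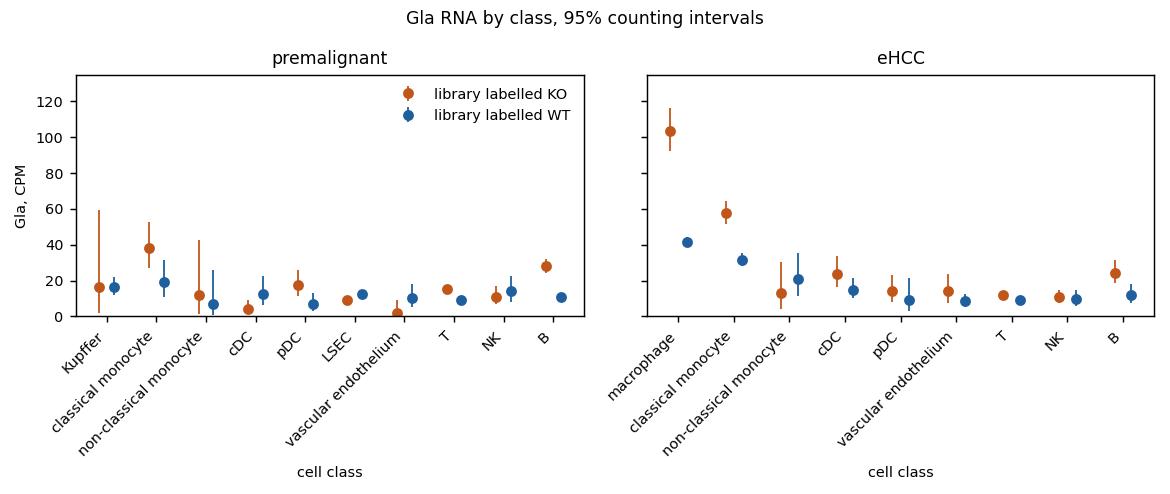
Gla level in CPM by cell class with at least 30 cells in both libraries of a stage, with 95% counting intervals, in premalignant liver (left) and eHCC (right); orange is the library labelled KO and blue the one labelled WT. In eHCC the macrophage values are 104 and 41.8 CPM, and in premalignant B cells the values are 27.9 and 10.8 CPM.

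Endothelial levels were close in the 2 premalignant libraries. In LSEC 1 of 31 members was higher and 3 lower in the library labelled KO (4.05% and 3.41% of 12083 genes), with a median of 0.02 against 0.04 for all genes. The 3 lower members, Ctsc (6.54 against 11.7 CPM, -0.84), Cd68 (3.33 against 5.69 CPM, -0.77) and Ctss (12.4 against 19.7 CPM, -0.67), are genes of phagocytes, and C1q RNA in these cells was 40.3 against 120 CPM. Scaled to it, the macrophage level gave 6.46 and 14.7 CPM of Ctsc and 9.89 and 17.7 CPM of Ctss, and its part in these ratios was not tested. Ctsw was 5.53 against 2.70 CPM (1.03).

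Among abundant LSEC members, Ctsd was 839 against 666 CPM, Psap 1121 against 906 CPM and Scarb2 510 against 433 CPM. Each of the 3 ratios was above 0 in all 4 LSEC clusters with at least 100 cells per library (0.21 to 0.46, 0.18 to 0.32 and 0.16 to 0.53), and those of Cst3 and Ctsl were below 0 in all 4. Npc2 and Tfec were also above 0 in all 4, and Ctso and Ctsz below. All stayed within 1.5-fold for the class. In premalignant pDC, Lgmn alone of 26 members passed the fold, at 62.2 against 96.9 CPM (-0.64, -1.06 to -0.22), where 9.32% of 5925 genes were higher and 4.2% lower, with a median of -0.10 against 0.05 for all genes. C1q RNA in pDC was 2.93 and 49.7 CPM, and the Lgmn scaled to it 0.621 and 8.78 CPM.

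Classes with fewer than 100 cells in a library are given as values only. In premalignant Kupffer cells Ctsb, Ctss, Psap and Lgmn were all within 1.5-fold between the libraries. Cst3 was 1340 against 2138 CPM (-0.67), Gusb 107 against 191 CPM (-0.84) and Tfec 140 against 76.9 CPM (0.86). The Kupffer cells labelled KO numbered 32, with a median depth of 1553.5 UMIs against 4860 UMIs labelled WT, so low members there rest on few UMIs. In eHCC vascular endothelium Ctsb was 1009 against 1593 CPM (-0.66), Ctss 24.6 against 78.7 CPM (-1.68) and Lgmn 242 against 606 CPM (-1.32). In eHCC non-classical monocytes Npc2 was 346 against 842 CPM (-1.28) and Ctsc 286 against 621 CPM (-1.12), while Lipa was 210 against 114 CPM (0.88).

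Between stages, genes as a whole had lower CPM in eHCC, with all-gene median log2 ratios of -0.41 in T cells, -0.41 in NK cells and -0.44 in B cells labelled KO and of -0.20, -0.22 and -0.23 in those labelled WT. Members' medians were -0.49, -0.21 and -0.39 labelled KO and -0.33, -0.24 and -0.01 labelled WT. Relative to all genes they were thus -0.07, 0.21 and 0.05, and -0.14, -0.02 and 0.22. In T cells labelled KO 0 of 30 members were higher in eHCC and 11 lower (6.83% and 39.8% of 11473 genes), and in those labelled WT 2 and 6 of 30 (6.72% and 18.4% of 11412). Centred on all genes the splits were 5 and 7, and 5 and 5. With the 4 gene groups named above left out of the total, T cells labelled WT gave 4 and 6.

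Ctsl was lower in eHCC in T cells of both genotype labels, at 16.6 against 48.3 CPM labelled KO (-1.54) and 19.6 against 71.0 CPM labelled WT (-1.86), both beyond the shift of all genes. LSEC, in which Ctsl, Lamp2, Scarb2 and Lgmn were abundant, numbered 2899 and 5488 in premalignant liver labelled KO and WT. In eHCC they numbered 9 and 46. The part of free LSEC RNA in lower levels of these genes in T, NK and B cells of eHCC was not tested. Lipa was 13.9 against 30.5 CPM (-1.13) and 17.4 against 35.5 CPM (-1.03). Cst3 was 125 against 345 CPM (-1.46) and 256 against 525 CPM (-1.03), but the latter was 0.07 when each cell had equal weight and 0.20 after thinning. Ctss was higher in eHCC in T cells labelled WT, at 164 against 102 CPM (0.69), with 56.9 and 6.80 CPM scaled to C1q RNA. The other lower members labelled KO were Ctsh (-2.01), Lgmn (-1.76), Psap (-1.36), Mcoln1 (-1.03), Grn (-0.93), Hexa (-0.91), Npc1 (-0.76) and Tfeb (-0.75). Labelled WT they were Tfec (-2.13), Scarb2 (-0.81) and Ctsa (-0.73), and Ctsh was higher (0.87).

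In NK cells, 1 of 24 members labelled KO was higher in eHCC and 4 lower (5.21% and 38.7% of 7550 genes), and 2 and 8 of 25 labelled WT (5.8% and 20.2% of 6365). Centring gave 3 and 2, and 4 and 6, and the smaller total gave 2 and 4, and 4 and 6. Ctss was 68.7 against 22.9 CPM labelled KO (1.59) and 109 against 30.4 CPM labelled WT (1.84), with 4.79 and 55.6 CPM scaled to C1q RNA in eHCC. Tfeb was 13.6 against 33.8 CPM (-1.31) and 10.7 against 24.3 CPM (-1.19). Ctsl was lower with either label (-0.97 and -1.73), as was Lipa at 14.9 against 29.9 CPM and 20.3 against 37.3 CPM, and Psap was lower labelled KO (-0.88). Labelled WT, Ctsa (-1.47), Ctso (-1.07), Lamp2 (-0.95), Hexa (-0.75) and Scarb2 (-0.66) were lower too, and Ctsh was higher at 24.2 against 5.21 CPM (2.22), with 15.4 and 2.37 CPM scaled to C1q RNA. In B cells, 1 of 29 members labelled KO was higher and 8 lower (3.35% and 40.1% of 8713 genes), and 2 and 3 of 28 labelled WT (3.56% and 21.3% of 9131). Centring gave 1 and 2, and 2 and 2, and the smaller total gave 1 and 3 labelled KO. Mcoln1 was 1.97 against 11 CPM (-2.48) and 4.49 against 9.70 CPM (-1.11) in B cells, on 5 and 8 UMIs in eHCC. The other lower members were Tfeb (-1.18), Ctsl (-0.86), Psap (-0.75), Ctsd (-0.74), Gusb (-0.72), Ctse (-0.62) and Ctsb (-0.61) labelled KO, and Ctsa (-0.85) and Ctsl (-0.74) labelled WT. Cd68 was higher with either label, at 9.43 against 6.22 CPM (0.60) and 18.5 against 6.79 CPM (1.45), with 1.47 and 6.68 CPM scaled to C1q RNA in eHCC, and Ctsd was higher labelled WT (0.86).

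Classical monocytes labelled KO had 4 of 27 members higher and 1 lower in eHCC (10.6% and 20.3% of 7331 genes), with a median of 0.19 against -0.12 for all genes. Ctsl was 184 against 79.2 CPM (1.22), Ctsc 876 against 518 CPM (0.76), Lgmn 228 against 138 CPM (0.73) and Gla 57.8 against 38.0 CPM (0.60), and Tfeb was 24.9 against 62.7 CPM (-1.33). After centring, 9 were higher and 1 lower. In the small premalignant class labelled WT the same 2 proteases were lower than in eHCC, Ctsl at 83.6 against 328 CPM and Lgmn at 189 against 532 CPM.

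Vascular endothelium labelled WT had 3 of 25 members higher and 8 lower in eHCC (14.1% and 21.3% of 7805 genes), with a median of -0.37 against -0.11 for all genes. Scarb2 was 67.2 against 496 CPM (-2.88, -3.14 to -2.63), Ctsh 36.6 against 235 CPM (-2.68, -3.04 to -2.34) and Cst3 510 against 1832 CPM (-1.85, -1.95 to -1.75). Lamp2 was 268 against 677 CPM, and Tfec (-1.16), Ctso (-0.70), Asah1 (-0.69) and Psap (-0.66) were lower too. Ctsb was higher, at 1593 against 716 CPM (1.15, 1.05 to 1.26), as were Ctss at 78.7 against 20.4 CPM and Ctsc at 23.0 against 9.35 CPM. The amounts scaled to C1q RNA in eHCC were 35.2 CPM of Ctsb, 67.7 CPM of Ctss and 17.3 CPM of Ctsc. After centring, 4 were higher and 6 lower. The cells lay in different clusters. Of 107 premalignant cells, 100 were in a cluster led by Rspo3 and Vwf. Of 154 eHCC cells, 151 were in a cluster led by Igfbp3 and Esm1. Whether these were different kinds of endothelium was not tested. In the libraries labelled KO, with 56 and 64 cells of vascular endothelium, Scarb2 was 529 and 93.1 CPM and Ctsh 226 and 34.3 CPM.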

How the data were processed

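Whole-gene UMI counts per cell barcode were deposited by the authors as 1 matrix per library, written by Cell Ranger 3.0.1 per the file headers. Tools and builds listed without roles, per the submitters' processing notes, are mm10, GRCh38, Cell Ranger and bcl2fastq (2.20.0). Deposited barcodes numbered 9672, 14167, 10686 and 11022, with totals of 56458438, 96593761, 93920711 and 118594527 UMIs (premalignant KO and WT, then eHCC KO and WT).

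Cells with at least 500 UMIs, 300 genes and at most 25% mitochondrial UMIs were kept. Scrublet scores were used to leave out the top-scoring cells at 0.8% per 1000 cells (701, 1483, 581 and 795 cells), because Scrublet's own threshold marked from 0.0112% to 7.118%. Counts scaled to 10000 per cell and log-transformed were clustered with scanpy 1.11.5 (2000 variable genes without the lysosomal genes, 40 components, 15 neighbours, Leiden resolution 1) into 38 clusters, and 5821 phagocytes and dendritic cells again into 21. Clusters were named from marker lists when at least 3 markers were detected and leading genes did not go against the name.

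UMIs were summed per class and library and divided by the class total (CPM), with exact Poisson intervals for levels and exact binomial intervals for ratios, at 95%. PCR or droplet effects are not covered. A member was named when its ratio reached 1.5-fold with at least 50 UMIs in both libraries together, in classes of at least 100 cells per library. A level of 0 was replaced by a floor of 3 UMIs. The scripts were tested on simulated data. Members, lists and rules were chosen with earlier results of these data known. Another 91 lysosomal genes of a list of 92 were in the files (Ifi30 was not). The values of 1 of these genes are not reported here. C1q scaling multiplied a gene's level in macrophages and Kupffer cells by the ratio of C1q CPM in the class to C1q CPM in those cells. Alternatives covered doublets, mitochondrial limit, cell weighting, thinning, scaling, UMI minimum, clustering, single cells and fold.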

Additional observations from a re-analysis of the deposited data

Results flagged for a closer look

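A pair of members passed 1.5-fold in opposite directions between stages in the libraries of the 2 genotype labels, with no test of that difference. In B cells, Ctsd had a log2 ratio of eHCC over premalignant liver of -0.74 (-1.12 to -0.38) labelled KO, from 48.6 to 29.1 CPM, and of 0.861 (0.589 to 1.13) labelled WT, from 47.0 to 85.3 CPM. In T cells, Ctsh had a ratio of -2.01 (-2.29 to -1.74) labelled KO, from 20.3 to 5.02 CPM, and of 0.867 (0.622 to 1.12) labelled WT, from 15.4 to 28.0 CPM. Of the eHCC levels labelled WT, 40.1 CPM of Ctsd and 15.8 CPM of Ctsh are the amounts scaled to macrophage C1q RNA, whose part in the difference was not tested.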

How the results depend on the processing

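No paired analysis was possible because each group has 1 library and the labels give no replicate numbers. Of 250 alternative values of members' medians and of how many members were highest in a monocyte or macrophage class, 242 stayed within the interval or 1.5 times of the reported value. For medians, that interval came from the spread of the members' ratios and not from counting error. A median that changed sign inside it counted as unchanged, so this is a weak check. The T cell median in premalignant liver was -0.253 with doublets kept. The macrophage median in eHCC was -0.15 with equal cell weights and -0.14 when held to clusters shared by both libraries, an alternative chosen after seeing the data, under which 4 members passed the fold instead of 12, Lipa turned to -0.279 and Atp6v0d2 to -0.401. In the Gdf15 cluster, 1 of the shared clusters, 32.9% of the Atp6v0d2 UMIs labelled WT came from 1 cell. Centred stage medians were -0.074, 0.207 and 0.052 in T, NK and B cells labelled KO and 0.219 in B cells labelled WT, and that of NK cells labelled KO was -0.017 with another total. Of 1369 alternative ratios of named members, 1186 stayed in their counting interval, but 143 and 96 of these belong to the minimums of 20 and 200 UMIs, which change only which members are named and cannot move a ratio. Thinning kept 31 of 71, with 36 moved and 4 reversed. In all 175 moved and 8 changed sign: besides the pair above, Ctsk in macrophages (-1.09, doublets kept), Lipa in monocytes (-0.155, thinned), Cst3 in T cells between stages labelled WT (0.074, equal weights, and 0.2, thinned), Grn in T cells (0.000) and Ctsb in B cells (0.099) between stages labelled KO, both thinned.

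Of the counts of members past the fold, 190 stayed within 1.5 times the reported count and 49 moved. At 2-fold, the counts for KO against WT fell to 0 from 1 in pDC, 1 from 4 in LSEC, 0 from 4 and 2 from 5 in premalignant T and NK cells, 2 from 7 in monocytes, 2 from 5 in cDC, 3 from 11, 2 from 8 and 3 from 10 in T, NK and B cells of eHCC, and 2 in the Ccl8 and Gdf15 clusters. Between stages they fell to 2 in monocytes and 7, 3 and 2 in T, NK and B cells labelled KO, and to 4, 6 and 2 labelled WT. At least 200 UMIs gave 0 for premalignant NK cells, 2 for cDC, 3 and 4 for NK and B cells of eHCC, 3 for the Ccl8 cluster and, between stages, 2 for NK cells of either label and 3 for B cells labelled WT. At least 20 UMIs gave 2 for pDC and, between stages labelled KO, 8 for monocytes and 9 for NK cells. Thinning gave 0 for pDC, 1 for premalignant NK cells, 2 and 3 for NK and B cells of eHCC, 2 for the Gdf15 cluster and, between stages, 3 for NK cells labelled KO and 6, 1 and 11 for vascular endothelium, NK and B cells labelled WT. Doublets kept gave 1 for LSEC, 3 for premalignant NK cells and 9 for NK cells between stages labelled KO, where Leiden resolution 2 gave 8. Another total gave 5 for premalignant B cells and 4 for B cells between stages labelled KO, and centring gave 3 there and 10 for monocytes. Premalignant NK cells gave 9 with equal weights and 3 without the top cell. Other clusterings gave no value for the 2 single clusters. With 1 library per group, genotype, stage, animal and library preparation cannot be told apart, and low members rest on few UMIs.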

Other observations

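Classes outside those described held members with patterns of their own. Erythroid cells of eHCC labelled KO (451 cells) had 408 CPM of Ctse, where Ctse was among the leading genes of a cluster, against 21.8 CPM in the 40 erythroid cells of eHCC labelled WT. The 53 cholangiocytes of premalignant liver labelled KO held 149 CPM of Ctse. Ctsk, low in the ranked classes, was 364 CPM in the 47 stellate cells or fibroblasts of eHCC labelled WT and 29.6 CPM in the 56 of premalignant liver labelled KO.

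Gla in neutrophils was 131 and 125 CPM in premalignant liver labelled KO and WT, on 19 and 21 UMIs, and 77.6 and 56.9 CPM in eHCC. Cst3 in neutrophils was 1060, 815, 399 and 1583 CPM in the same order. Neutrophils numbered 48, 48, 68 and 669. Hepatocytes labelled WT held 505 CPM of Lamp1 in each stage and 399 and 433 CPM of Ctsl, in 67 and 62 cells.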
